A study of Saccharomyces cerevisiae with 6 samples.

Results

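The genes described here are 55 budding yeast genes of the DNA replication machinery, taken from a fixed list of gene identifiers by what their products do. The list was chosen with earlier results of these data known. All 55 were found among the 5913 genes of the expression table, and they lie on 15 chromosomes. They encode polymerases alpha, delta and epsilon, replication protein A, the sliding clamp and its loaders, the MCM helicase, the origin recognition complex and its loading factors, CDC45 and GINS, the origin firing factors, the Okazaki fragment enzymes, the fork protection factors and thymidylate synthase. Their mRNA was compared between *not4Δ* cells that expressed the Not4RRM mutant, in which the RNA recognition motif and the adjoining C3H1 zinc finger of the Not4 ubiquitin ligase are mutated, and *not4Δ* cells that expressed Not4WT. Each group had 3 separate cultures, 6 samples in all, and the comparison asks how mRNA levels depend on this pair of Not4 domains. The strain was BY4741 (*MATa his3Δ1 leu2Δ0 met15Δ0 ura3Δ0*) with *NOT4* replaced by *KANMX*, so both groups lack the chromosomal gene. Both proteins carried a C-terminal FLAG tag and were made from the *ADH1* promoter on a centromeric *URA3* plasmid in cells grown to log phase without uracil. Not4WT cells are therefore a plasmid-complemented control and not a strain with the gene at its own locus, and neither group was synchronized in the cell cycle.

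Replication begins when the origin recognition complex, Cdc6 and Cdt1 load the MCM helicase on DNA in G1. Kinases then recruit Cdc45 and GINS to the helicase, and the fork is copied by polymerase alpha-primase, which lays down primers, by polymerase epsilon on the leading strand and by polymerase delta on the lagging strand. In budding yeast many of these genes are transcribed together late in G1 by MBF, a complex of Mbp1 and Swi6 that binds the MCB box, ACGCGT. Since a mixed culture holds cells in every phase, fewer cells in late G1 and less mRNA in each of them cannot be told apart in these data.

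The MCB box reads the same on both strands, and it was searched for in the 300 bases before each start codon in the R64 assembly. At least 1 box was found for 25 of the 55 genes (45.5%), and 9 of these had 2 boxes, against 209 of 6026 coding genes with a full window (3.47%). The windows below show, with the box in capitals and 12 bases to each side on the coding strand, the 8 genes with a box that were lower in Not4RRM cells at an unadjusted p under 0.05, then the sliding clamp gene *POL30* and, as the gene with a box that was highest relative to Not4WT, *DBF4*. Where a gene has 2 boxes, the one farther from the start codon is given. A match describes the letters only and was not tested as a binding site.
POL1 (chrXIV:429867-429896, + strand): acatctattcaaACGCGTtaaaattttttt
PRI2 (chrXI:353316-353345, + strand): tgatttgaaattACGCGTcgcggggaatcg
POL2 (chrXIV:148085-148114, + strand): agggtaaccagaACGCGTaagtttcttgca
DPB2 (chrXVI:888828-888857, + strand): aaaagtgatgtgACGCGTtatttttcgcgt
RFA1 (chrI:158767-158796, - strand): tggaaaaatgtcACGCGTaaaaattagacg
CDC45 (chrXII:346104-346133, - strand): gtttcattcacgACGCGTatttttttttca
CDC9 (chrIV:167362-167391, - strand): cttaacgcgaaaACGCGTgaaagtgaaatt
CTF4 (chrXVI:799099-799128, + strand): ctgtttaacgcgACGCGTaataaagtttcc
POL30 (chrII:425944-425973, - strand): ccaaaacgcgaaACGCGTaacttttttttt
DBF4 (chrIV:560848-560877, - strand): ttttttttgcaaACGCGTcttaggtcgatc
The boxes shown end 202 bases before the start codon in *POL1*, 159 in *PRI2*, 109 in *POL2*, 128 in *DPB2*, 159 in *RFA1*, 174 in *CDC45*, 119 in *CDC9*, 117 in *CTF4*, 189 in *POL30* and 234 in *DBF4*.

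The values are the authors' scaled read counts, brought to the same total in each sample and rounded, and the depth before scaling is unknown, so the spread between cultures is the only error given. Totals were 14881818 to 14881884 per sample, and the 10 highest genes took 18.5% to 25.9% of them. *NOT4* itself had scaled read counts of 33371, 40410 and 40314 in Not4RRM cells and 12357, 13057 and 8966 in Not4WT cells, so the groups did not overlap and differed in the level of the plasmid-borne mRNA as well as in its sequence (log2 fold change 1.87, limma adjusted p = 0.072). Of the markers of the labelled strain, the *MATa* pheromone receptor gene *STE2* had 12373, 5222 and 5293 in Not4RRM cells and 9120, 9277 and 9457 in Not4WT cells. Its *MATα* counterpart *STE3* had 69 to 120 over the 6 samples, while the deleted *LEU2* and *MET17* (*MET15*) had 11 to 19 and 14 to 26. *URA3*, the plasmid marker, had 9251, 4506 and 3990 in Not4RRM cells and 1047, 1270 and 1056 in Not4WT cells, which did not overlap (log2 fold change 2.42, limma adjusted p = 0.072). *HIS3*, of which *his3Δ1* removes only an internal stretch, had 805 to 2521. Among all genes, 0 of 5805 tested passed an adjusted p under 0.05 with a change of at least 1.5-fold in limma, while 926 had an unadjusted p under 0.05. Not4RRM replicate 1 stood apart. Without it 358 of 5793 genes passed, with sample quality weights 1061 of 5805 passed, and with the study's own steps, which apply a test per gene to the deposited values and adjust within the list already selected, 355 of 5913 passed. Of 5 *MATa* marker genes, *STE2*, *MFA1* and *BAR1* passed as lower without Not4RRM replicate 1 (background 2.26%), and *MFA2* and *STE6* did not. Fold changes are log2 values of Not4RRM over Not4WT after TMM scaling with 1 added, and their errors are limma's standard errors.

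All 55 replication genes passed the filter on low values, and 0 of 55 passed the threshold, against a background of 0.0% of all genes tested. Their limma adjusted p-values ran from 0.169 for *POL2* to 0.966. At an unadjusted p under 0.05, 9 genes were lower in Not4RRM cells (16.4%, background 6.12%) and 4 were higher (7.27%, background 9.84%). The 9 were *POL1*, *PRI2*, *POL2*, *DPB2*, *RFA1*, *CTF18*, *CDC45*, *CDC9* and *CTF4*, and the 4 were *MCM5*, *MCM7*, *ORC6* and *PSF2*. Whatever its p, a gene was lower in Not4RRM cells in 36 of 55 cases (65.5%, background 45.2%). The median log2 fold change of the 55 was -0.10, beside 0.05 over all genes tested. On the TMM scale the 2 groups did not overlap for 12 genes with Not4RRM lower (21.8%, background 12.2%) and for 4 with Not4RRM higher (7.27%, background 12.3%). With equal totals in place of TMM scaling, the median of all genes moved by -0.12, and the 55 genes had a median of -0.22 with 39 of them lower. In that setting 3320 of all 5805 tested genes were lower. The genes of polymerase alpha-primase, polymerase delta and fork protection were all lower in the mean under TMM scaling, equal totals and median of ratios scaling. Equal totals put 4 of 6 MCM genes and 5 of 8 origin recognition and loading genes on the lower side, beside the 3320 of 5805.

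**Figure D1:**
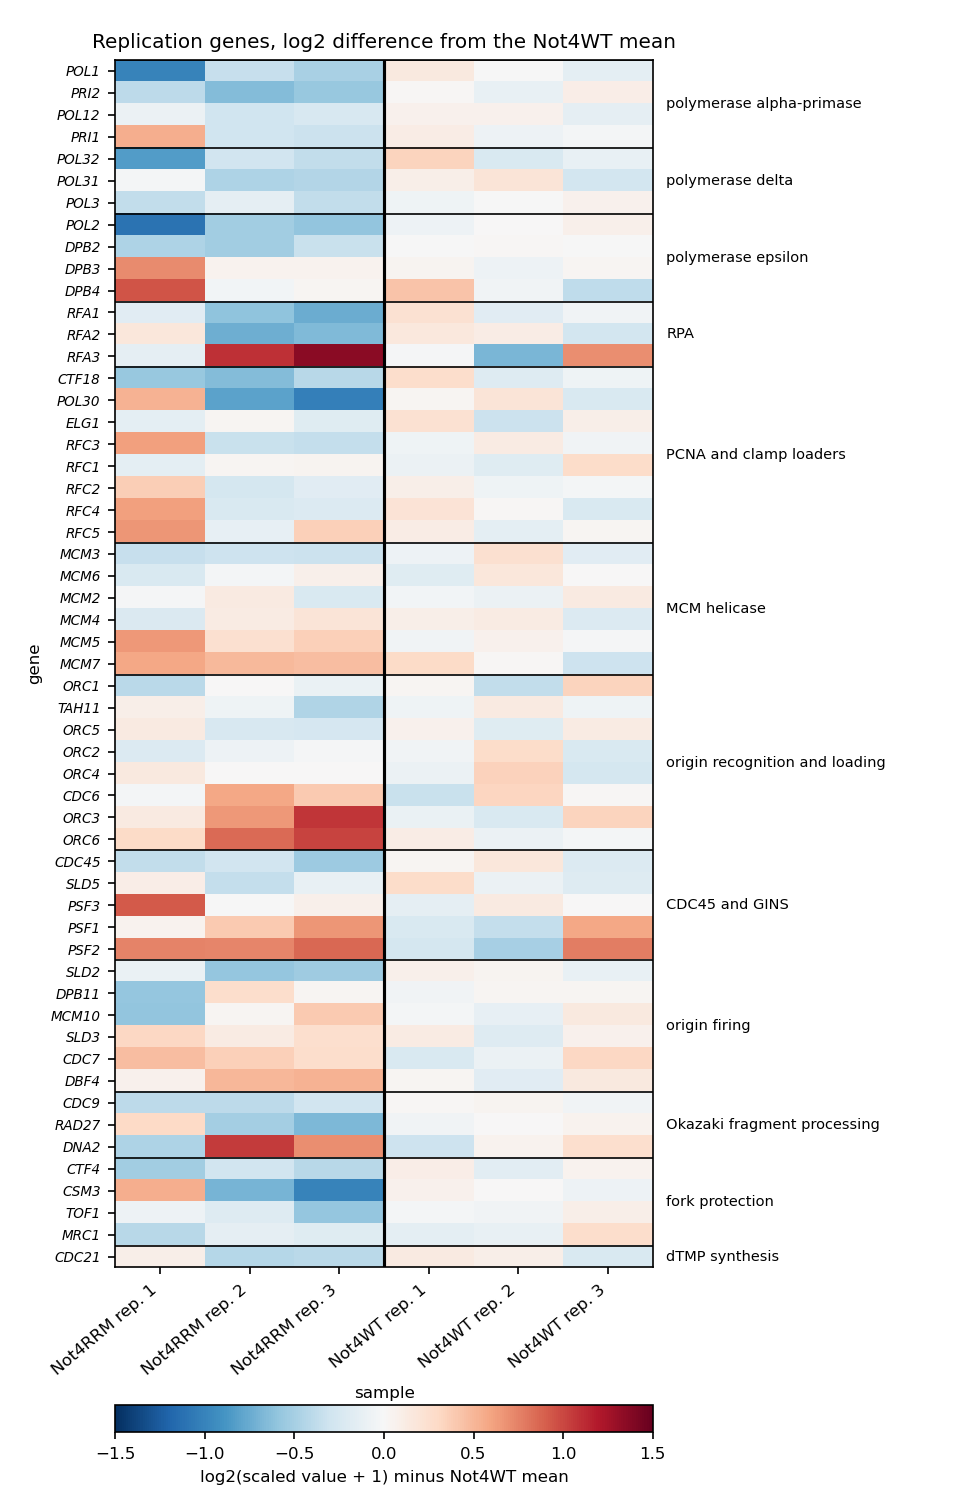
Each row is a replication gene, grouped by role, and each column a sample, with Not4RRM replicates 1 to 3 on the left of the black line and Not4WT replicates 1 to 3 on the right. The colour is the log2 scaled value minus the Not4WT mean of that gene. The 4 genes of polymerase alpha-primase and the 4 of fork protection are lower in the Not4RRM mean, while the rows of the MCM and origin recognition genes are mixed.

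Polymerase alpha-primase starts every Okazaki fragment with a short RNA-DNA primer. Its 4 genes were all lower in the mean of Not4RRM cells (background 45.2%), 2 of them at an unadjusted p under 0.05 (background 6.12%). Their median log2 fold change was -0.37. The study picked genes of this enzyme from these same samples, so their direction is not independent evidence. *POL1* (YNL102W, chromosome XIV, 430087 to 434493, 1 exon), the catalytic subunit of polymerase alpha, had scaled read counts of 494, 783 and 675 in Not4RRM cells and 1178, 1103 and 933 in Not4WT cells. The groups did not overlap, and Not4RRM replicate 1 was the lowest of the 6 samples. Its log2 fold change was -0.61 ± 0.21 (SE), with a limma adjusted p of 0.247, and it was -0.42 without Not4RRM replicate 1. *PRI2* (YKL045W), the large primase subunit, had 258, 216 and 217 in Not4RRM cells and 365, 348 and 377 in Not4WT cells. Here the gap between the groups was wide beside the spread within each. The log2 fold change of *PRI2* was -0.54 ± 0.16, with a limma adjusted p of 0.193. *PRI1*, the catalytic primase subunit, behaved differently, with 2832, 1574 and 1478 in Not4RRM cells and 2234, 2047 and 1970 in Not4WT cells. Not4RRM replicate 1 was the highest of all samples and the other 2 Not4RRM cultures were the lowest, so the log2 fold change of -0.03 has a 95% interval of -0.63 to 0.57 and became 0.12 when Not4RRM replicate 3 was left out. *POL12*, which encodes the B subunit, had a log2 fold change of -0.21.

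Polymerase delta copies the lagging strand, and its 3 genes were also lower in Not4RRM means (background 45.2%). Of these 0 of 3 had an unadjusted p under 0.05, and the median was -0.31. *POL3*, the catalytic subunit, had 427, 504 and 407 in Not4RRM cells and 565, 612 and 598 in Not4WT cells. *POL32*, a small subunit that is not essential, had 62, 91 and 82 in Not4RRM cells and 150, 106 and 107 in Not4WT cells. The groups did not overlap for either gene. The log2 fold changes were -0.29 ± 0.15 for *POL3* (limma adjusted p = 0.38) and -0.50 ± 0.24 for *POL32* (limma adjusted p = 0.351). *POL31*, the subunit between them in the complex, had a log2 fold change of -0.31, and its groups overlapped.

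Polymerase epsilon copies the leading strand, and its 4 genes divided by subunit, with the 2 largest lower and the 2 histone-fold subunits not. *POL2* (YNL262W), the catalytic subunit and the longest gene of the 55 at 6669 bp of coding sequence, had 421, 635 and 578 in Not4RRM cells and 920, 1019 and 995 in Not4WT cells. Every Not4RRM culture was well below every Not4WT culture. Its log2 fold change of -0.74 ± 0.20 was the lowest of all 55 genes, with a limma adjusted p of 0.169 and an exact permutation p of 0.1, the smallest that 3 samples against 3 allow. Without Not4RRM replicate 1, the lowest culture, it was -0.55 with a limma adjusted p of 0.0415, which is short of 1.5-fold. *DPB2* (YPR175W), the essential second subunit, had 773, 740 and 802 in Not4RRM cells and 1129, 1198 and 1094 in Not4WT cells. These groups were also apart, with a log2 fold change of -0.44 ± 0.15 and a limma adjusted p of 0.239. The small subunit *DPB4* had 553, 279 and 278 in Not4RRM cells and 412, 308 and 228 in Not4WT cells. Not4RRM replicate 1 was the highest sample and the groups overlapped, and the log2 fold change of *DPB4* was 0.31 with all samples and -0.01 without that replicate. *DPB3*, its partner, had a log2 fold change of 0.27 with all samples and 0.05 without Not4RRM replicate 1. With the trend with coding length removed, *POL2* had -0.50, *DPB2* -0.31, *DPB3* 0.05 and *DPB4* 0.08. With that trend removed and Not4RRM replicate 1 left out, all 4 genes were lower, with a median of -0.31.

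**Figure D2:**
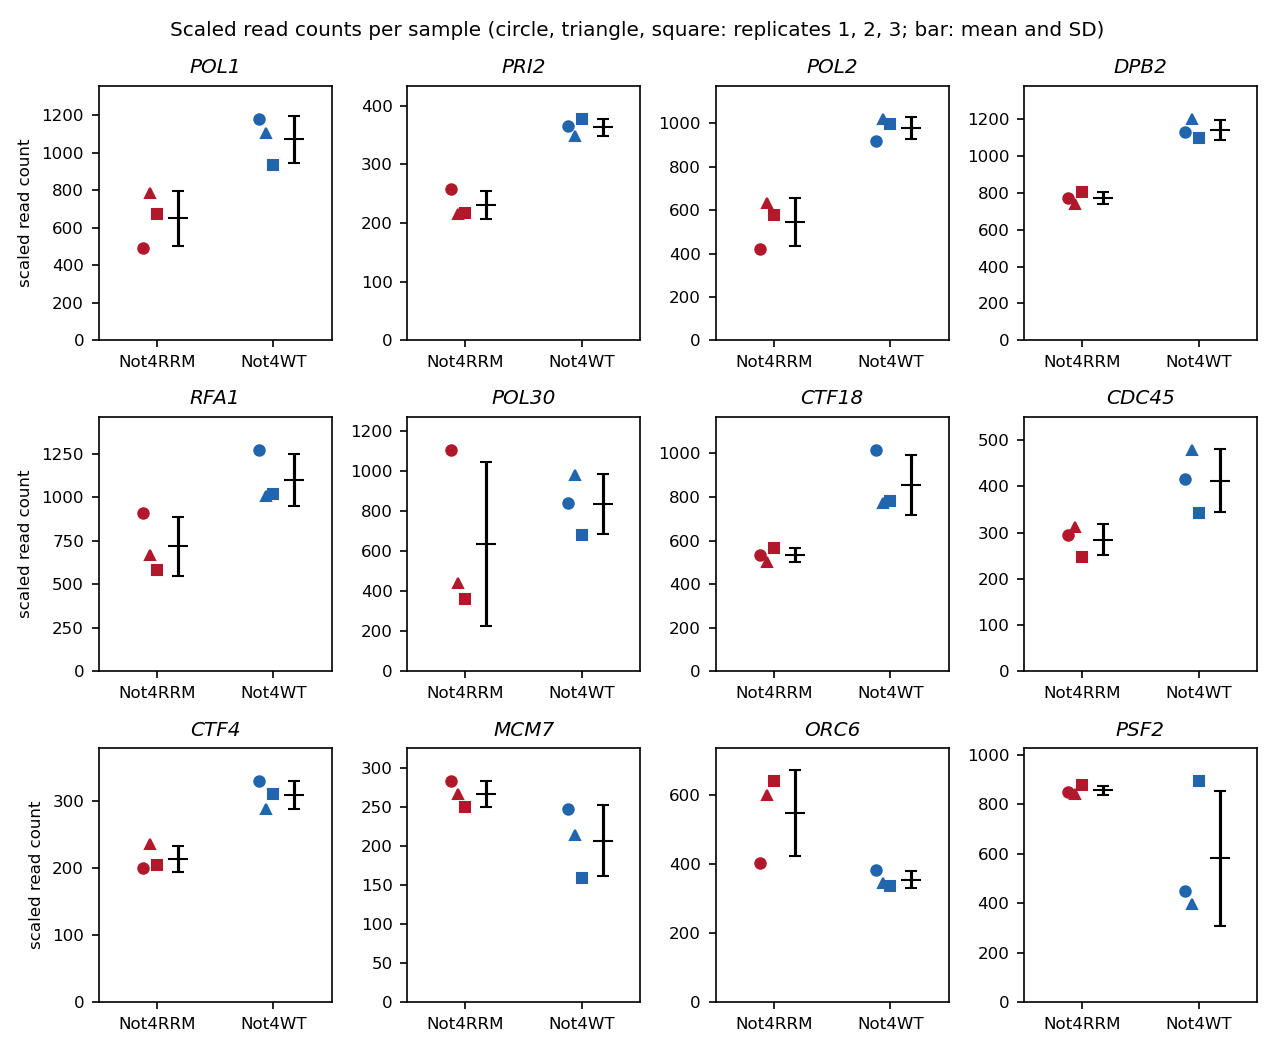
Scaled read counts of 12 of the genes described, 1 panel each, with Not4RRM on the left and Not4WT on the right of every panel and the vertical axis starting at 0. Points are the 3 cultures of a group (circle, triangle and square for replicates 1, 2 and 3) and bars are the mean and SD. For POL1 the Not4RRM cultures lie between 494 and 783, all below the Not4WT cultures at 933 to 1178, whereas for POL30 Not4RRM replicate 1 at 1106 lies above all 3 Not4WT cultures.

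Replication protein A coats single-stranded DNA at the fork, and its 3 subunits did not move alike. *RFA1*, the large subunit, had 908, 670 and 581 in Not4RRM cells and 1272, 1007 and 1021 in Not4WT cells. The deposited values of the groups were apart, but after TMM scaling Not4RRM replicate 1 met the Not4WT range. The log2 fold change of *RFA1* was -0.50 ± 0.21, with a limma adjusted p of 0.296. *RFA3*, the small subunit, had 2979, 6990 and 7990 in Not4RRM cells and 3462, 2271 and 5527 in Not4WT cells. It varied more than 2-fold within each group, the groups overlapped, and its log2 fold change of 0.77 ± 0.47 (limma adjusted p = 0.437) had a 95% interval of -0.32 to 1.85. *RFA2*, the middle subunit and the 1 gene of the 55 with an intron, had a log2 fold change of -0.41 with all samples and -0.69 without Not4RRM replicate 1.

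The sliding clamp PCNA holds the polymerases on DNA and is encoded by *POL30*. *POL30* (YBR088C) had 1106, 443 and 361 in Not4RRM cells and 843, 982 and 684 in Not4WT cells. Not4RRM replicates 2 and 3 were below all Not4WT cultures and Not4RRM replicate 1 was above them. Its log2 fold change was -0.43 ± 0.38 with all samples (limma adjusted p = 0.58) and -0.91 without Not4RRM replicate 1 (limma adjusted p = 0.0339), the 1 setting of a left-out sample in which it passed the threshold. *CTF18*, part of an alternative clamp loader needed for sister chromatid cohesion, had 532, 503 and 565 in Not4RRM cells and 1014, 770 and 782 in Not4WT cells. The groups did not overlap, and the log2 fold change was -0.55 ± 0.18 with a limma adjusted p of 0.229. The canonical loader RFC opens the clamp, and its 5 genes gave log2 fold changes of -0.03 for *RFC1*, -0.02 for *RFC2*, -0.03 for *RFC3*, 0.06 for *RFC4* and 0.30 for *RFC5*. *RFC5* had 633, 365 and 489 in Not4RRM cells and 462, 400 and 423 in Not4WT cells, with overlapping groups. For *RFC2*, *RFC3*, *RFC4* and *RFC5* Not4RRM replicate 1 was the highest of the 6 samples, and without it the 5 values, *RFC1* to *RFC5*, were 0.03, -0.22, -0.35, -0.22 and 0.12. *ELG1*, whose product takes PCNA off DNA, had a log2 fold change of -0.10.

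Okazaki fragments are trimmed and joined by Rad27, Dna2 and the DNA ligase Cdc9. *CDC9* had 183, 183 and 187 in Not4RRM cells and 259, 274 and 240 in Not4WT cells. The Not4RRM cultures were closely alike and all below the Not4WT cultures, with a log2 fold change of -0.36 ± 0.15 and a limma adjusted p of 0.297. *RAD27*, the flap nuclease gene, had a log2 fold change of -0.30 with all samples and -0.59 without Not4RRM replicate 1, where its limma adjusted p was 0.0482. *DNA2*, a nuclease and helicase gene on chromosome VIII, had 132, 381 and 285 in Not4RRM cells and 158, 211 and 227 in Not4WT cells. Not4RRM replicate 1 was the lowest of the 6 samples and the other 2 Not4RRM cultures were the highest. The log2 fold change of *DNA2* was 0.43 ± 0.38 with all samples (limma adjusted p = 0.58) and 0.88 without Not4RRM replicate 1, and it turned to -0.18 once the genes of chromosome VIII were centred in each sample, since the 275 tested genes of that chromosome had a median log2 fold change of 0.65.

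The fork protection factors Tof1, Csm3 and Mrc1 keep the helicase and polymerases together, and Ctf4 ties polymerase alpha to the helicase. All 4 genes were lower in Not4RRM means (background 45.2%), and 1 of them had an unadjusted p under 0.05 (background 6.12%). Their median was -0.33 (-0.17 with the trend with coding length removed). *CTF4* (YPR135W) had 200, 236 and 205 in Not4RRM cells and 329, 287 and 310 in Not4WT cells. The groups did not overlap, and its log2 fold change was -0.41 ± 0.16 (limma adjusted p = 0.286). *MRC1*, which also carries the replication checkpoint signal, had 464, 566 and 524 in Not4RRM cells and 600, 639 and 771 in Not4WT cells. Its deposited values were apart but met after TMM scaling, and the log2 fold change was -0.24 ± 0.18 (limma adjusted p = 0.505), or -0.06 with the length trend removed. *TOF1* had a log2 fold change of -0.28, which was -0.09 with the length trend removed. *CSM3*, with low values of 20 to 63, had -0.38 with all samples and -0.85 without Not4RRM replicate 1. *CDC21*, which encodes thymidylate synthase, the enzyme that makes dTMP, had 1786, 1244 and 1210 in Not4RRM cells and 1975, 1984 and 1490 in Not4WT cells. Its groups overlapped, and its log2 fold change was -0.25 ± 0.21 (limma adjusted p = 0.558).

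**Figure D3:**
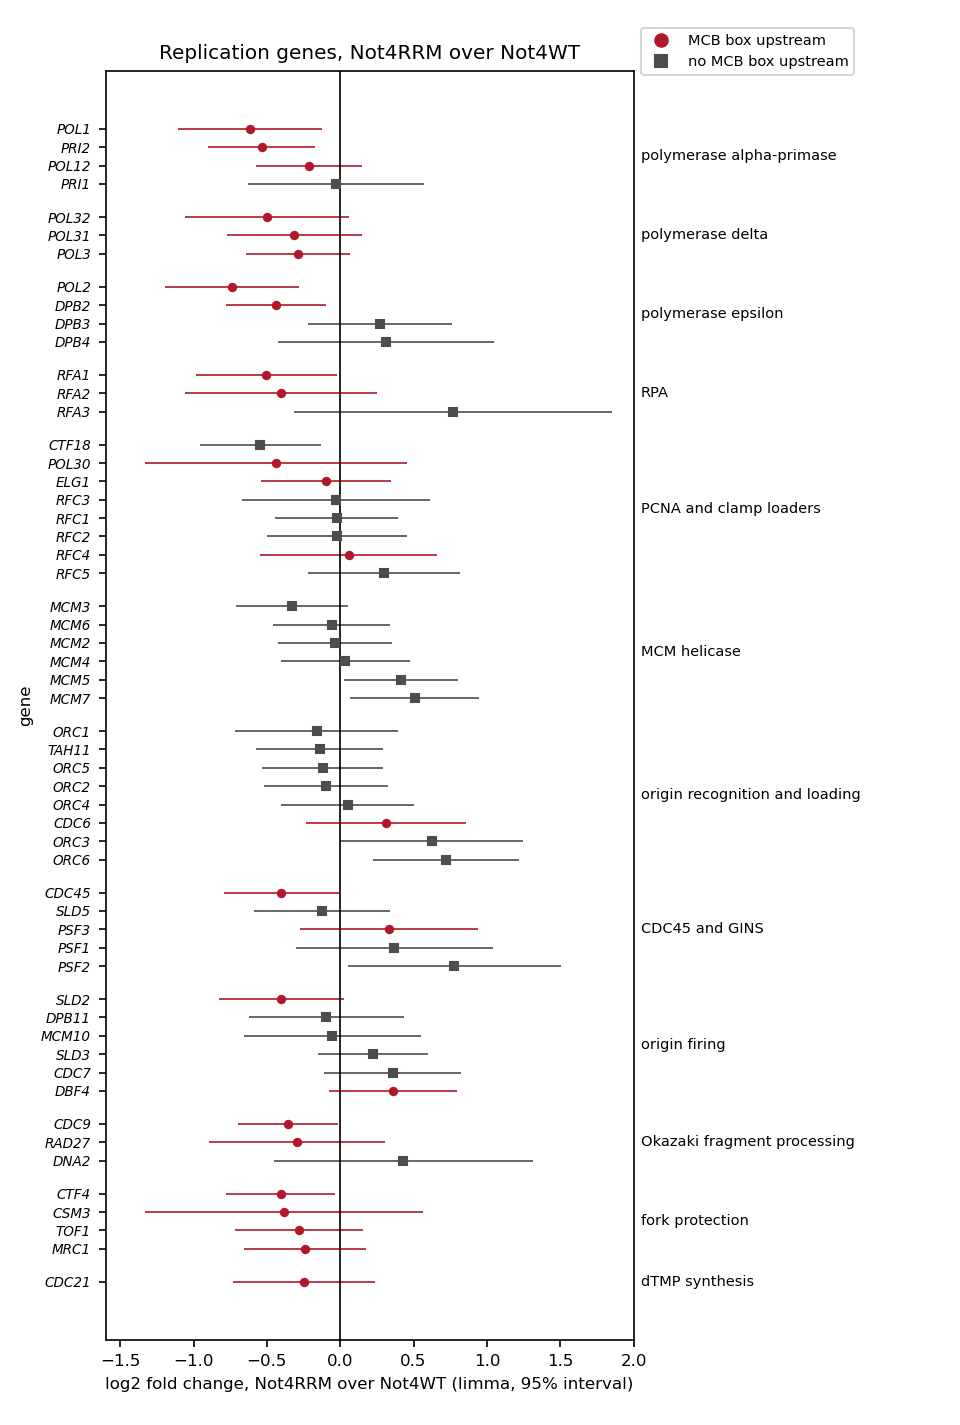
The log2 fold change of each of the 55 genes, Not4RRM over Not4WT, with limma's 95% interval as a line, ordered within roles. Circles are genes with an MCB box in the 300 bases before the start codon and squares are genes without. The intervals are not adjusted for the number of genes, and of the 25 circles 21 lie left of 0.

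The MCM proteins form the motor of the replicative helicase. The 6 genes were evenly divided, with 3 lower (background 45.2%) and 3 higher (background 54.8%) in Not4RRM means. *MCM7* (YBR202W) had 283, 266 and 250 in Not4RRM cells and 248, 214 and 159 in Not4WT cells. *MCM5* had 1032, 779 and 804 in Not4RRM cells and 681, 770 and 675 in Not4WT cells. Neither gene's groups overlapped, though the gap was small for both. The log2 fold changes were 0.51 ± 0.19 for *MCM7* (limma adjusted p = 0.274) and 0.41 ± 0.17 for *MCM5* (limma adjusted p = 0.295). *MCM3* ran the other way, with 429, 440 and 416 in Not4RRM cells and 553, 720 and 505 in Not4WT cells. Its groups were apart, and the log2 fold change was -0.33 ± 0.16 (limma adjusted p = 0.365). *MCM2* had 245, 272 and 202 in Not4RRM cells and 258, 259 and 282 in Not4WT cells, with overlapping groups and a 95% interval of -0.43 to 0.35 around a log2 fold change of -0.04. *MCM4* and *MCM6* had log2 fold changes of 0.03 and -0.06.

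Of the 8 genes that mark origins and load the helicase, 4 were lower (background 45.2%) and 4 higher (background 54.8%) in Not4RRM means. *ORC6* (YHR118C, chromosome VIII, 344321 to 345628), a subunit of the origin recognition complex, had 404, 598 and 639 in Not4RRM cells and 382, 346 and 337 in Not4WT cells. All Not4RRM cultures were above all Not4WT cultures, and Not4RRM replicate 1 was the nearest to them. Its log2 fold change was 0.72 ± 0.21 with a limma adjusted p of 0.205, and 0.93 without Not4RRM replicate 1, where the limma adjusted p was 0.0228. *ORC6* lies on the same chromosome as *DNA2*, where 268 of 275 tested genes were higher in Not4RRM means. With the genes of chromosome VIII centred in each sample the log2 fold change of *ORC6* was 0.11. *ORC1*, the large ATPase subunit, had 72, 96 and 85 in Not4RRM cells and 104, 82 and 125 in Not4WT cells. These groups overlapped, and the log2 fold change of *ORC1* was -0.16 with a 95% interval of -0.72 to 0.40. The other log2 fold changes were -0.10 for *ORC2*, 0.62 for *ORC3*, 0.05 for *ORC4*, -0.12 for *ORC5*, 0.31 for *CDC6* and -0.14 for *TAH11*, the yeast gene for Cdt1.

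Cdc45 and the GINS complex turn the loaded MCM ring into an active helicase. *CDC45* (YLR103C) had 295, 312 and 248 in Not4RRM cells and 416, 478 and 343 in Not4WT cells. The groups did not overlap, with a log2 fold change of -0.40 ± 0.17 and a limma adjusted p of 0.304. *PSF2*, a GINS subunit, had 849, 842 and 878 in Not4RRM cells and 451, 399 and 893 in Not4WT cells. The Not4RRM cultures were closely alike, but Not4WT replicate 3 had the highest deposited value of the 6 samples. After TMM scaling Not4RRM replicate 3 was the highest, and the groups still overlapped. The log2 fold change of *PSF2* was nevertheless 0.78 ± 0.31 (limma adjusted p = 0.295), the highest of the 55 genes. The other GINS genes had log2 fold changes of 0.37 for *PSF1*, 0.33 for *PSF3* and -0.12 for *SLD5*, and that of *PSF3* was 0.03 without Not4RRM replicate 1.

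The firing factors connect the cell cycle kinases to the helicase, and 0 of 6 had an unadjusted p under 0.05. *DBF4*, the regulatory subunit of the Cdc7 kinase, had 657, 889 and 862 in Not4RRM cells and 684, 622 and 721 in Not4WT cells. *SLD2*, whose product binds Dpb11 once it is phosphorylated, had 260, 186 and 184 in Not4RRM cells and 313, 319 and 267 in Not4WT cells. Not4RRM replicate 1 sat within the Not4WT range for *DBF4*, and for *SLD2* it was just below the lowest Not4WT culture and overlapped after TMM scaling. Their log2 fold changes were 0.36 ± 0.19 for *DBF4* (limma adjusted p = 0.376) and -0.40 ± 0.18 for *SLD2* (limma adjusted p = 0.331). The kinase gene *CDC7* had a log2 fold change of 0.36, and *SLD3*, *DPB11* and *MCM10* had 0.22, -0.09 and -0.05. Without Not4RRM replicate 1 *DPB11* was at 0.15 and *MCM10* at 0.21.

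The levels of these mRNAs covered a wide range. Per kilobase of coding sequence, *RFA3* had the highest mean scaled read count, 16223 in Not4RRM cells and 10172 in Not4WT cells, and *RFA2* followed with 4897 in Not4RRM cells and 6832 in Not4WT cells. At the low end *ORC1* had 30.7 per kilobase in Not4RRM cells and 37.8 in Not4WT cells, and *CSM3* had 38.1 and 48.2 in the same order of groups. Subunits of 1 complex were also far apart, since the catalytic subunit *POL1* had 148 per kilobase in Not4RRM cells and 243 in Not4WT cells while its partner *PRI1* had 1595 in Not4RRM cells and 1694 in Not4WT cells. *POL2* had 81.7 per kilobase in Not4RRM cells and 147 in Not4WT cells, below its subunit *DPB2*, with 373 in Not4RRM cells and 551 in Not4WT cells. These genes also differ in coding length, with 4407 bp in *POL1* and 1230 bp in *PRI1*, 6669 bp in *POL2* and 2070 bp in *DPB2*. The highest, *RFA3*, has 369 bp. The part of length in the values per kilobase was not tested.

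Genes with and without the MCB box differed in how many were lower. This split was chosen after the values were seen and was not tested. Of the 25 genes with a box, 21 were lower in Not4RRM means (84.0%, background 45.2%), 8 of them at an unadjusted p under 0.05 (background 6.12%), and 0 were higher at that p. Their median log2 fold change was -0.36. The groups did not overlap for 10 of the 25, each with Not4RRM lower (background 12.2%). The 4 genes with a box that were not lower were *RFC4*, *CDC6*, *PSF3* and *DBF4*. Of the 30 genes without a box, 15 were lower and the median was 0.01, with 1 lower (*CTF18*) and 4 higher (*MCM5*, *MCM7*, *ORC6* and *PSF2*) at an unadjusted p under 0.05. The box was spread unevenly over the roles. It was found in 3 of 3 genes of polymerase delta, 4 of 4 of fork protection, 0 of 6 MCM genes and 1 of 8 of origin recognition and loading. Other roles held genes with and without it. A box was found in 3 of 4 genes of polymerase alpha-primase, 2 of 4 of polymerase epsilon and 2 of 3 of RPA. It was also found in 2 of 3 Okazaki fragment genes, 3 of 8 PCNA and clamp loader genes, 2 of 5 of CDC45 and GINS and 2 of 6 origin firing genes. The part of the box and of the role in the fold changes was not tested. Outside the replication genes, 182 tested genes had a box, and 103 of these were lower in Not4RRM means (56.6%), with a median of -0.07. At an unadjusted p under 0.05, 18 of the 182 were lower (9.89%) and 13 higher (7.14%). The groups did not overlap for 33 with Not4RRM lower (18.1%) and for 16 with Not4RRM higher (8.79%). The boxed replication genes kept a median of -0.28 with the trend with coding length removed and had -0.42 without Not4RRM replicate 1, where 22 of 25 were lower (background 47.8%). By sample, their median difference from the Not4WT mean was -0.10 in Not4RRM replicate 1, -0.34 in replicate 2 and -0.42 in replicate 3, and it was 0.03, 0.01 and -0.05 in Not4WT replicates 1, 2 and 3.

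Coding length moved with the fold change, both over these genes and over all genes. Spearman's rho between the log2 fold change and coding length was -0.25 across the 55 genes and -0.41 across 5801 tested genes, and without Not4RRM replicate 1 it was -0.01 and -0.18 (these are across genes of the same samples, which are not independent). Not4RRM replicate 1 was the highest of the 6 samples for 17 replication genes (30.9%, background 30.7%), whose median coding length was 1062 bp. It was the lowest for 12 (21.8%, background 25.4%), whose median was 2859 bp. The median coding length of the 55 genes was 1815 bp. With the length trend removed from each sample, 28 of 55 genes were lower and their median was -0.01. Of all 5805 tested genes 2558 were lower in that setting, with a median of 0.05. The 9 genes that were lower at an unadjusted p under 0.05 before this removal then had -0.50 (*POL2*), -0.45 (*PRI2*), -0.41 (*POL1*), -0.41 (*CTF18*), -0.38 (*RFA1*), -0.31 (*DPB2*), -0.28 (*CDC45*), -0.24 (*CTF4*) and -0.22 (*CDC9*). Among the others *POL3* had -0.10 and *POL30* -0.56. The sign of the log2 fold change turned for 8 of the 55 genes with the length trend removed (*RFC1*, *ELG1*, *MCM2*, *MCM6*, *ORC1*, *ORC2*, *MCM10* and *DPB11*) and for 6 without Not4RRM replicate 1 (*DPB4*, *RFC1*, *RFC4*, *MCM6*, *MCM10* and *DPB11*). The part of length and of Not4RRM replicate 1 in the other differences was not tested. Without that replicate 3 of the 55 genes passed the threshold, *POL30* and *RAD27* lower (background 2.26%) and *ORC6* higher (background 3.92%). *ORC6* lies on chromosome VIII, where 133 of 275 tested genes passed in that setting. At an unadjusted p under 0.05 without that replicate, 17 of the 55 were lower (30.9%, background 13.8%) and 6 higher (10.9%, background 15.4%). With sample weights, which gave that replicate the lowest weight, 6 of the 55 passed as lower (background 5.01%) and 6 as higher (background 13.3%). The study's own steps passed 5 as lower (background 3.81%) and 0 as higher (background 2.2%).

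**Figure D4:**
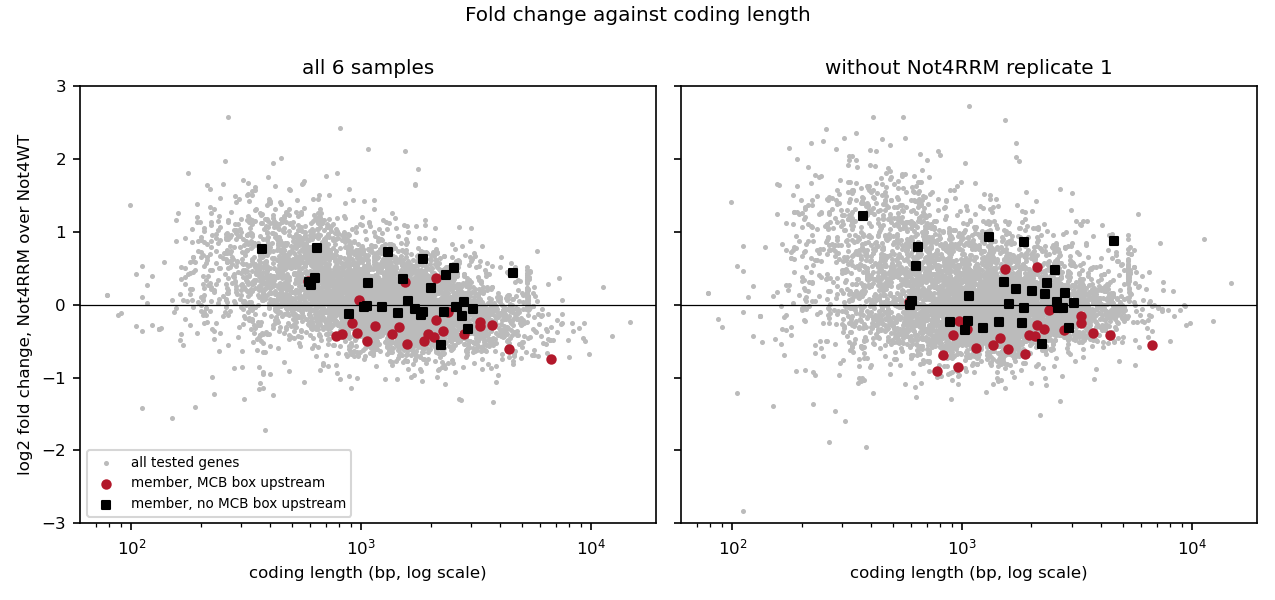
The log2 fold change, Not4RRM over Not4WT, against coding length in bp on a log axis, for all tested genes (grey) and the 55 replication genes (red circles with an MCB box upstream, black squares without), with all 6 samples and without Not4RRM replicate 1. Longer genes are lower over the whole table in the first case, with rho of -0.41, and less so in the second, with -0.18.

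Other genes of the pathway were taken by function, with earlier results of these data known. Of 32 further fork and checkpoint genes, 0 passed the threshold. In Not4RRM means 21 were lower (background 45.2%) and 11 higher (background 54.8%), and the median was -0.15. At an unadjusted p under 0.05, 5 were lower (background 6.12%) and 4 higher (background 9.84%). The lowest was *RAD53*, the checkpoint effector kinase, with 114, 139 and 102 in Not4RRM cells and 189, 209 and 197 in Not4WT cells. The highest with all genes on the same scale was *CTF8*, a partner of Ctf18 in the alternative clamp loader, with 119, 152 and 167 in Not4RRM cells and 50, 68 and 109 in Not4WT cells. Their groups did not overlap, and the log2 fold changes were -0.63 for *RAD53* (limma adjusted p = 0.178) and 1.12 for *CTF8* (limma adjusted p = 0.179). *CTF8* lies on chromosome VIII, and with the genes of that chromosome centred it had 0.51, below *RMI1*, a subunit gene of the Sgs1-Top3 complex, at 0.93. Ribonucleotide reductase makes the dNTPs that the fork uses. Of 9 genes for its subunits and regulators 7 were lower (background 45.2%), with a median of -0.22. Without Not4RRM replicate 1 6 were lower (background 47.8%), with a median of -0.42. *RNR1*, the large subunit, had 3729, 3517 and 3312 in Not4RRM cells and 10041, 10542 and 7846 in Not4WT cells. Its log2 fold change of -1.30 ± 0.18 (limma adjusted p = 0.078) was larger in size than that of any of the 55 genes, and *HUG1*, a small inhibitor of the enzyme, was the highest of the list at 1.06 with overlapping groups.

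Genes that mark the stages of the cell cycle around replication were also counted, from lists chosen with earlier results of these data known. Of 12 genes of G1/S transcription and cyclins, 9 were lower (background 45.2%) and 3 at an unadjusted p under 0.05 (background 6.12%), with a median of -0.21. Without Not4RRM replicate 1 7 of the 12 were lower (background 47.8%). In that setting 2 passed the threshold, *CLN2* as lower (background 2.26%) and *CLN3* as higher (background 3.92%). *CLN2*, a G1 cyclin, had 2267, 2612 and 2439 in Not4RRM cells and 5201, 5832 and 4831 in Not4WT cells, with groups that were far apart and a log2 fold change of -0.99 (limma adjusted p = 0.10). *CLN3*, which acts upstream of it, was the highest of this list at 0.45, and the MBF subunit genes *MBP1* and *SWI6* had -0.05 and 0.00 with all samples and 0.33 and 0.23 without Not4RRM replicate 1. Among the 10 G2/M genes 10 were higher in Not4RRM means (background 54.8%), with 4 at an unadjusted p under 0.05 (background 9.84%). Their median was 0.52, and 0 passed the threshold with all samples. Without Not4RRM replicate 1 the median was 0.71 and 7 of the 10 passed in limma (background 3.92%). *CLB1*, a mitotic cyclin, had 192, 207 and 175 in Not4RRM cells and 108, 77 and 121 in Not4WT cells, with a log2 fold change of 1.05. The study listed *CLB1* as higher from these same samples, so its direction is not independent evidence. *CLB2* was the lowest of the list at 0.38. The culture that stood apart was again Not4RRM replicate 1, in which the median difference from the Not4WT mean was 0.03 for the G2/M genes and -0.47 for the G1/S genes, while Not4RRM replicates 2 and 3 had 0.69 and 0.77 for the G2/M genes and -0.13 and -0.18 for the G1/S genes. The 8 core histone genes, whose mRNA peaks in S phase and whose copies are near-identical, had 3 lower (4 with the other scalings) and a median of 0.21, between -0.41 for *HTB2* and 0.79 for *HTA2*. The part of cell cycle stage in the values of the replication genes was not tested.

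**Figure D5:**
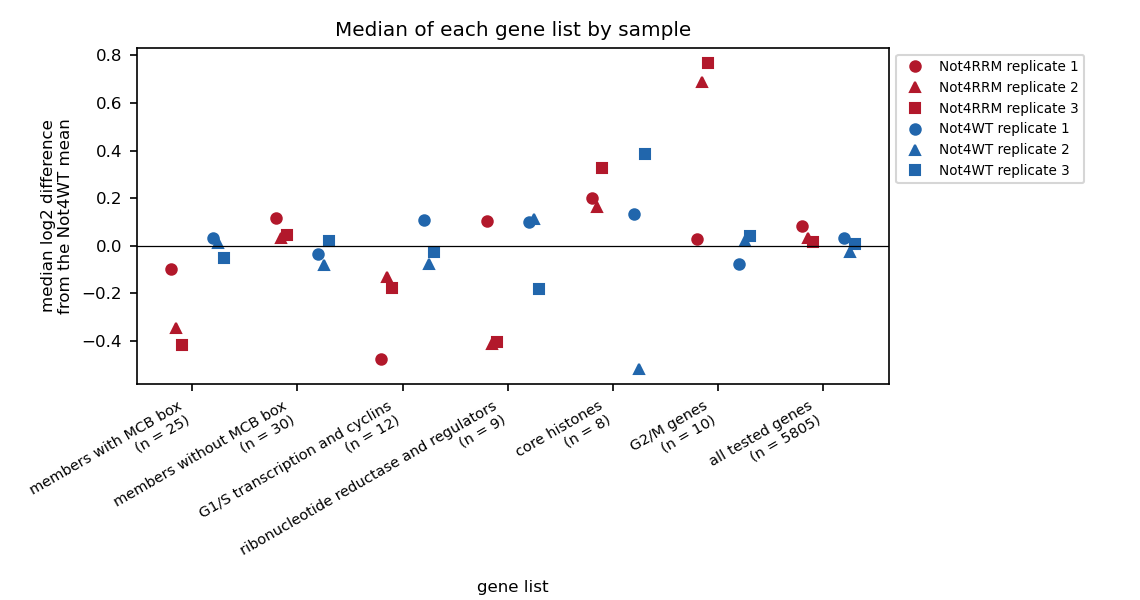
The median log2 difference from the Not4WT mean in each sample, for the replication genes with and without an MCB box, the G1/S, ribonucleotide reductase, histone and G2/M lists. Red symbols on the left of each pair are Not4RRM replicates 1 to 3 and blue symbols on the right are Not4WT replicates 1 to 3. All tested genes are shown beside them. For the replication genes with a box the Not4RRM medians are -0.10, -0.34 and -0.42.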

How the data were processed

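mRNA of 3 Not4RRM and 3 Not4WT cultures of *not4Δ* yeast was sequenced on an Ion Torrent Proton instrument. The paper and the labels name different library kits, and strand handling is not given in the sources used here. The authors trimmed the reads, aligned them with STAR (version not given in the sources used here), counted them per transcript, and scaled all samples down to the smallest library. What they deposited is thus a score on a common scale, rounded to whole numbers, and not raw counts. Scaling hides the depth, so no counting interval could be given.

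The nameless row was left out of the table of 5913 genes. Coordinates, coding lengths and upstream sequence were read from the RefSeq R64 genome and annotation, in which 5907 identifiers matched and 6 did not, and all 55 replication genes kept their symbols. A gene entered the test if 3 or more samples reached 10 and its sum reached 15 (5805 genes). Values were divided by TMM factors (30% of ratios and 5% of levels trimmed at each end), 1 was added, and log2 values were fitted in limma 3.58.1 (R 4.3.3) with group as the only term and a prior variance that follows the mean. The Benjamini-Hochberg adjustment ran over all tested genes, and calls needed an adjusted p below 0.05 with a fold change of 1.5 or more. Exact permutation tests were two-sided. Code was tested on simulated data.

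Named with values in every sample were *NOT4*, the lowest and highest gene of each role, the best known subunits and every replication gene with an unadjusted p under 0.05. The replication genes, roles and further lists were chosen with earlier results of these data known. Alternatives were other scalings, filters, pseudocounts and priors, sample weights, the paper's steps, a replicate block, removal of the coding length trend (loess, span 0.5), centring of chromosome VIII and each sample left out. Added after the data were seen were the split by the MCB box, the length trend removed without Not4RRM replicate 1, and the counts of groups that do not overlap under each alternative.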

Additional observations from a re-analysis of the deposited data

How the results depend on the processing

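Over all genes, the count past the threshold was 0 with all samples in limma, 1061 with sample weights, 6 with the length trend removed, 412 with the length trend removed without Not4RRM replicate 1, 355 with the paper's steps, and 0 to 358 with each sample left out, where only leaving out Not4RRM replicate 1 gave any. Of the 55 replication genes 0 passed with all samples, 12 with sample weights, 3 with the length trend removed without Not4RRM replicate 1 (*ORC6*, *POL2* and *POL30*), 5 with the paper's steps (*CTF18*, *POL1*, *POL2*, *PRI2* and *RFA1*, all lower), and 0 to 3 with each sample left out. Those lower at an unadjusted p under 0.05 were 9, against 24 with sample weights, 3 with the length trend removed, 19 with it removed without Not4RRM replicate 1, and 2 (without Not4WT replicate 1) to 17 (without Not4RRM replicate 1) with each sample left out. Those higher were 4, against 1 with equal totals, 11 with sample weights, 7 with the length trend removed without Not4RRM replicate 1, 0 with the paper's steps, and 1 to 6 with each sample left out. Over all tested genes, both directions together, 926 were under that p. Sample weights gave 2488, the length trend removed 959, and its removal without Not4RRM replicate 1 gave 1766. Equal totals gave 1012, the paper's steps 723, and each sample left out 499 to 1693. Groups did not overlap, with Not4RRM lower, for 12 of the 55 replication genes, against 5 with the length trend removed, 27 with it removed without Not4RRM replicate 1, and 12 to 25 with each sample left out. With Not4RRM higher they did not overlap for 4, against 8, 9 and 4 to 10 in the same settings. Fewer samples overlap less by construction. The share of all genes without overlap is not given for these alternatives, so their overlap counts are not read as a result about the replication genes. The median of the 55 genes was -0.10, against -0.22 with equal totals, -0.18 with sample weights, -0.0084 with the length trend removed, -0.19 with it removed without Not4RRM replicate 1, -0.23 with the paper's steps, and -0.22 to -0.076 with each sample left out. The cause of these moves was not tested.

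The replicate numbers did not pair the samples (correlations of same-numbered deviations 0.07, -0.15 and 0.38), and the replicate block left 0 genes past the threshold, with 6 replication genes lower and 4 higher at an unadjusted p under 0.05. The replicate block with the length trend removed gave 5 lower and 8 higher at that p, 5 and 8 without overlap, and a median of -0.0084. Over all tested genes, both directions together, 902 were under that p with the block and 974 with the length trend also removed.

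Of 560 log2 fold changes of the 28 named genes under alternatives, 529 kept their direction and side of the threshold, 18 moved past it and 13 changed sign. *PRI1* ran between -0.31 and 0.12 with each sample left out, positive without Not4RRM replicate 2, Not4RRM replicate 3 or Not4WT replicate 1. *DPB4* turned to -0.18 with sample weights, -0.0060 without Not4RRM replicate 1 (up to 0.50 without Not4WT replicate 1) and -0.20 with the length trend removed without Not4RRM replicate 1. *MCM2* turned to 0.023 with sample weights, 0.12 with the length trend removed, with or without the replicate block, and ran from -0.12 to 0.057 (without Not4RRM replicate 3) with each sample left out. *ORC1* turned to 0.00073 with the length trend removed, with or without the block, and *DNA2* to -0.18 with chromosome VIII centred. The unknown depth limits what can be said of low genes such as *CSM3*, which a filter on a mean of 50 removed.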
